A study of Drosophila melanogaster with 4 samples.

Results

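The centromere-proximal end of the Drosophila X chromosome is where the gene-rich euchromatin of the arm gives way to pericentric heterochromatin. The stretch described here is the last 3 Mb of the X arm sequence (FlyBase release 5, X from 19422828 to 22422827), and its members are the H3K9me2-enriched regions that end within it. They numbered 217 of 3667 regions in the list of ChIP replicate 1, 267 of 4728 in the list of replicate 2 and 358 of 5614 in the authors' combined list. The rule used position only, so the number, length and score of the regions were free to vary. No region crossed the boundary in any list. The closest member lay at 19436400 to 19438442 in replicate 1 (score 0.828), and the closest region outside at 19403331 to 19404887 (score 0.413). In replicate 2 they lay at 19436752 to 19438135 (score 0.541) and 19403266 to 19404926 (score 0.398).

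Dimethylation of lysine 9 of histone H3 is a mark of silent chromatin. In flies it is laid down by methyltransferases such as SU(VAR)3-9 and G9a and bound by heterochromatin protein HP1a, through which the silent state can spread along the fibre. The pericentric part of X is the classical setting of position effect variegation: in the white-mottled inversion the white eye-colour gene is moved next to it and is silenced in some cells of the eye. It also holds the flamenco locus, a source of piRNAs that restrain transposons. Release 5 positions of genes and repeats were not used here, so no gene is assigned to any region below.

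The regions come from chromatin immunoprecipitation followed by sequencing, with 1 antibody against H3K9me2, on larval nuclei from the third instar of the wild-type strain Oregon-R. The groups were 2 ChIP libraries and 2 input libraries, and every library came from the same strain, genotype and stage. Per the labels, the input of the same number served each ChIP list, and the inputs were given no list themselves. Larval tissues were homogenised, per the labels' protocols, so each list describes a mixture of cell types. Separate larval collections are not stated for the replicates, whose spread may therefore be technical. The files hold no read counts, which leaves the depth unknown, and values carry no interval for counting error.

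Enriched regions covered 29.9% of the last 3 Mb of X in replicate 1 and 29.9% in replicate 2, against 11.8% and 13.0% of the rest of X. The mean excess over the rest of X was 17.5 ± 0.790 percentage points (SD, n = 2), far larger than the spread between replicates. The combined list covered 48.9% of the last 3 Mb and 22.3% of the rest. The higher coverage came with a closer packing of regions. There were 72.3 and 89 regions per Mb in the last 3 Mb in replicates 1 and 2, against 36.3 and 43.9 per Mb on the rest of X, which gives a mean ratio of 2.01 ± 0.0275 (SD, n = 2). The regions themselves were little longer, with a median of 2489 and 2189 bp in the last 3 Mb against 2205 and 2038.5 bp on the rest (mean ratio 1.10 ± 0.0389, SD, n = 2). A two-sided exact permutation test on 2 replicate lists has 0.5 as its smallest p. No such test was made, and each difference is set against the spread between replicates.

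Most of the pericentric regions were short, and a small number of long ones carried a large part of the covered bases. Regions of at least 10 kb numbered 12 in replicate 1 and 11 in replicate 2, or 5.53% and 4.12% of the members, against 2.55% and 2.23% of the regions on the rest of X. They held 27.0% and 19.5% of the covered bases of the last 3 Mb, against 13.0% and 12.3% on the rest. The lengths ran from 1309 to 39720 bp in replicate 1 and from 1308 to 38511 bp in replicate 2. On the rest of X the longest regions measured 41159 and 33970 bp. Neighbouring regions were often nearly touching: 24.5% and 29.3% of the gaps between members were under 1 kb, against 13.8% and 14.5% of the gaps on the rest of X. The longest gap between members was 114.0 kb in replicate 1 and 139.9 kb in replicate 2.

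**Figure D1:**
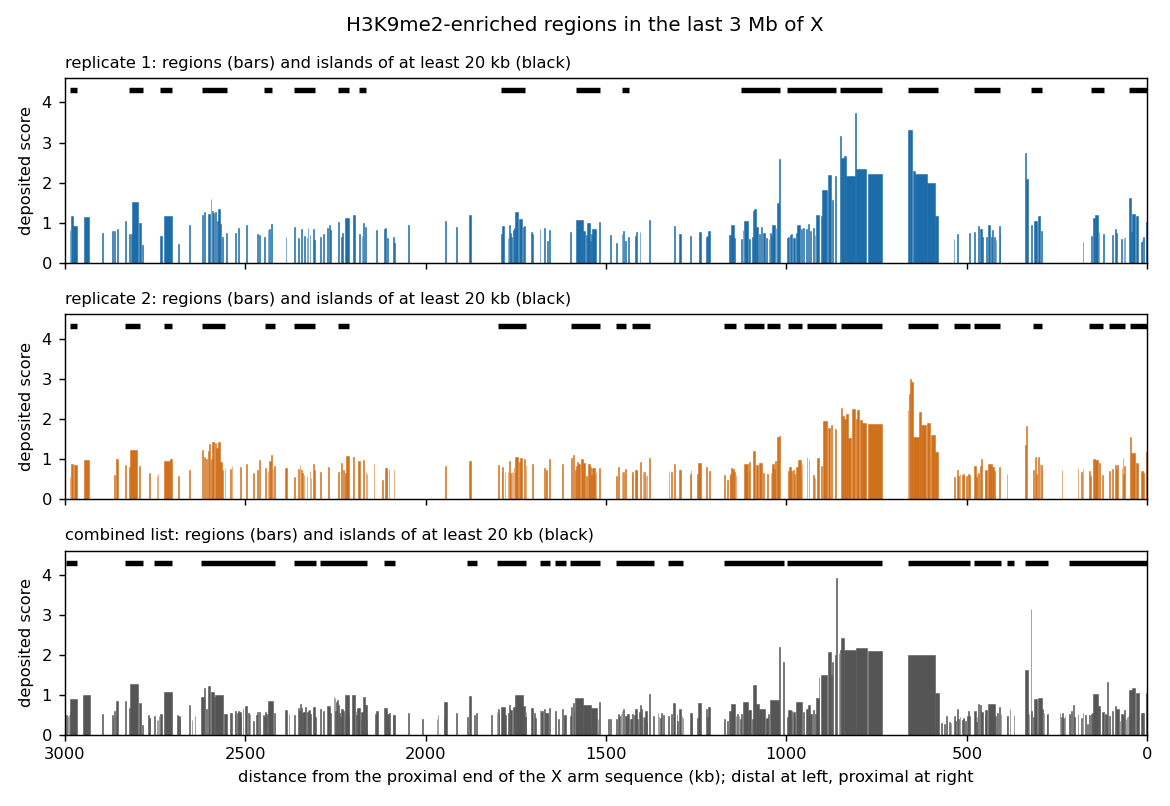
Every enriched region of the last 3 Mb of X in each list, as a bar whose width is its length and whose height is its deposited score, against the distance in kb from the proximal end of the arm sequence. Black lines mark islands of at least 20 kb; the tallest wide bars stand between about 580 and 850 kb from the end in all 3 lists.

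The coverage did not climb steadily towards the centromere. The 1 Mb at the proximal end was covered over 39.8% ± 0.457, the next 1 Mb over 24.9% ± 0.123 and the third over 24.6% in replicate 1 and 25.4% in replicate 2 (SD, n = 2 for the means), so that the second and the third differed by less than the spread between replicates. Just beyond the boundary, 3 to 4 Mb from the end, 10.7% ± 0.679 was covered, and 4 to 5 Mb from the end 21.9% ± 1.08 (SD, n = 2 for each). Coverage was thus lower outside the last 3 Mb, but 4 to 5 Mb from the end it came within 3 percentage points of the level of the second Mb.

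In windows of 100 kb the transition was a series of rises and falls. At the very end of the arm the first window was covered over 43.9% in replicate 1 and 48.0% in replicate 2. Coverage was down to 6.06% and 7.43% in the window 200 to 300 kb from the end, and up to 38.7% and 46.0% in the window 400 to 500 kb from it. The 5 windows between 600 and 1100 kb from the end formed the broadest covered stretch, with 51.7% to 70.3% in replicate 1 and 40.9% to 61.2% in replicate 2. Of these, the 3 windows nearest the end were at least 50% covered in both replicates. They were the only such windows among the 30 of the last 3 Mb, or 10.0%, against 3 of 194 windows (1.55%) on the rest of X and 4.12% of all windows of the 5 large arms. Replicate 1 alone had 6 windows at or above 50% and the combined list 14, so this count rests on the list used.

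Further from the centromere covered and open windows alternated sharply. The window 1500 to 1600 kb from the end was covered over 52.1% and 49.3%, the next over 8.59% and 8.48%, and the one after that over 43.0% and 43.3% in replicates 1 and 2. These 3 windows adjoin, and the mean step of 42.2 percentage points between the first and the second was the largest between any neighbouring windows of the 30. Beyond them lay a trough of 3 windows, 1800 to 2100 kb from the end, covered over 5.39% to 7.22% in replicate 1 and 1.60% to 5.85% in replicate 2. Distal to the trough, the windows from 2100 kb out to the boundary were again covered over 13.5% to 34.5% in replicate 1 and 16.1% to 38.4% in replicate 2. The median window of the last 3 Mb was covered over 29.2%, against 9.48% on the rest of X, so the windows of the trough lay below the typical window of the rest of the chromosome.

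The replicates followed each other closely in this pattern. The difference between them had a median of 3.35 percentage points over the 30 windows and reached at most 11.6. Replicate 1 was the higher in 14 windows and replicate 2 in 16. As a description over windows, which are not independent, Spearman's rho was 0.950.

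**Figure D2:**
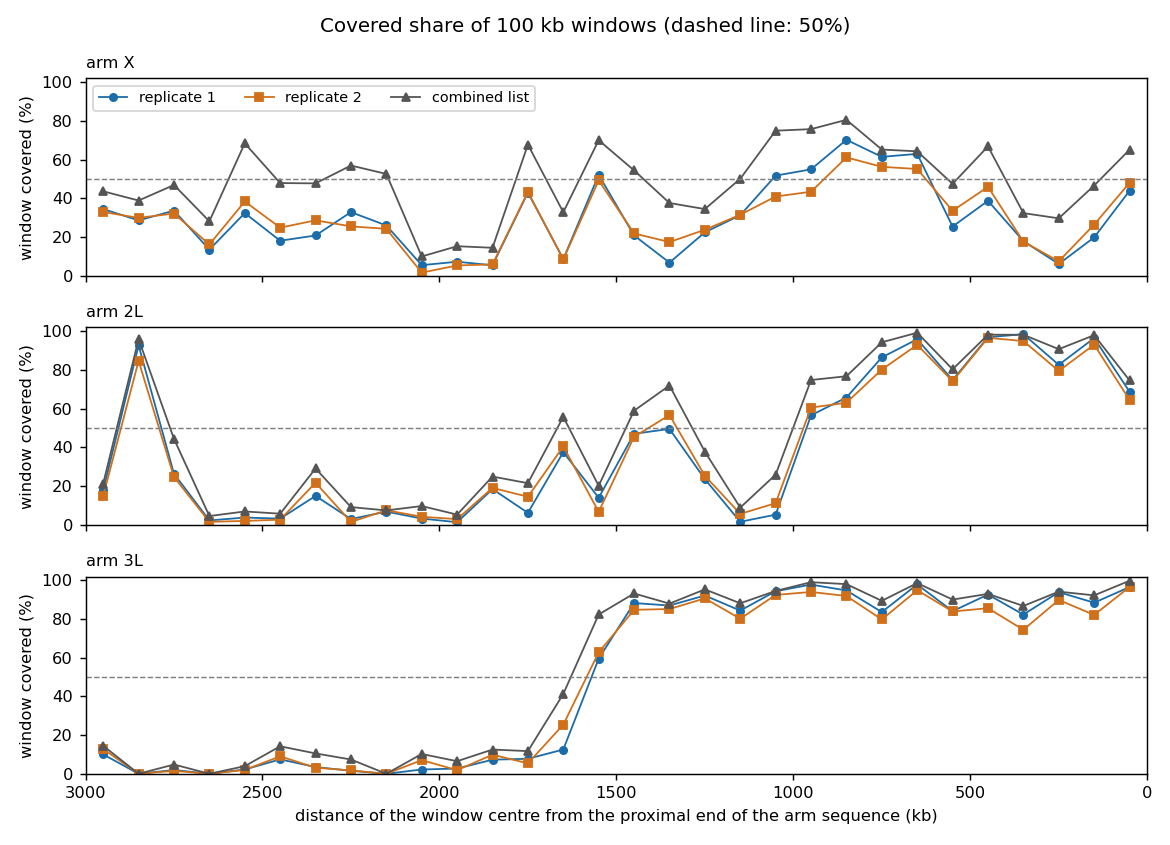
Covered share of 100 kb windows (percent) against distance from the proximal end (kb) on X, 2L and 3L, with a line for each replicate and for the combined list; the dashed line is 50%. On X the replicate lines cross it in few places, whereas on 3L they stay above it over the first 16 windows. Windows under 10% numbered 6 in replicate 1 and 5 in replicate 2 on X, against 10 and 9 on 2L and 12 and 12 on 3L.

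X differed in shape from 2L and 3L, the arms whose proximal end also lies at high coordinates. On 3L coverage stood at 89.3% ± 2.75 in the first Mb, 53.7% ± 0.186 in the second and 3.31% ± 0.590 in the third, while 2L had 81.2% ± 1.63, 21.6% ± 1.66 and 17.0% ± 0.610 over the same distances (SD, n = 2 for each). The lower level of X in the first Mb and its higher level in the third both exceeded the spread between replicates. A run of windows at least 50% covered began at the proximal end and held 16 windows on 3L and 10 on 2L in both replicates, whereas on X the first window already fell short in both. The last 3 Mb of X switched between windows below and windows at or above 25% covered 12 times in each replicate, against 7 times on 2L and 1 time on 3L. The order of X and 2L was not the same at other settings. At 50% X switched 4 and 2 times in replicates 1 and 2, against 3 and 5 times on 2L, and in the combined list at 25% X switched 2 times, against 9 on 2L. The number of switches therefore does not set X apart from 2L. The covered bases of X were also less gathered at the proximal end of the arm sequence. Of those in the last 3 Mb, 44.4% ± 0.523 lay in the first Mb, against means of 67.8% ± 1.03 for 2L and 61.0% ± 1.06 for 3L (SD, n = 2 for each). These shares were not adjusted for the higher coverage of X outside the last 3 Mb. All distances count from the end of each arm sequence. How far each end lies from the centromere was not tested, so equal distances on the arms need not be equal distances from it.

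The enrichment on X was broken into islands. When regions of a list were joined across gaps of at most 10 kb, the last 3 Mb held 19 islands of at least 20 kb in replicate 1 and 24 in replicate 2, against 8 and 7 on 2L and 3 and 3 on 3L. The islands were smaller too. The longest on X spanned 133.9 and 111.9 kb in replicates 1 and 2, against 655.3 and 783.2 kb on 2L and 831.0 and 838.7 kb on 3L. The island with the most covered bases held 11.4% ± 0.839 of all covered bases in the last 3 Mb of X, against means of 50.8% ± 3.46 for 2L and 51.4% ± 0.481 for 3L (SD, n = 2 for each). Within the most proximal Mb, the longest stretch without a region in either replicate measured 71.1 kb on X, 24.4 kb on 2L and 11.1 kb on 3L; whether reads can be placed in these stretches was not tested. Over all 3 Mb the order differed, with 98.4 kb on X, 104.4 kb on 2L and 187.4 kb on 3L.

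Islands took up 79.5% and 83.4% of the covered bases of the last 3 Mb of X in replicates 1 and 2 and held 152 and 211 of its regions. Their median length was 49.2 and 45.5 kb, which includes the gaps joined within them. Regions filled 33.4% to 98.2% of an island in replicate 1 and 40.2% to 98.3% in replicate 2. The share of covered bases in islands was not computed for the rest of X. The islands were spread over the whole stretch, with 7 and 10 in the first Mb, 4 and 7 in the second and 8 and 7 in the third. Regions joined to no other numbered 24 in replicate 1 and 19 in replicate 2. The 5 islands with the most covered bases in replicate 1 ran from 21571263 to 21687454 (107.6 kb covered), from 21758508 to 21844190 (84.1 kb), from 21425645 to 21559570 (79.1 kb), from 21297500 to 21405676 (69.7 kb) and from 20839411 to 20906284 (50.6 kb). In replicate 2 they ran from 21575456 to 21687305 (97.0 kb covered), from 21759056 to 21842596 (74.1 kb), from 20827188 to 20906380 (49.3 kb), from 19804050 to 19868114 (44.7 kb) and from 20623944 to 20702360 (41.7 kb). The islands starting at 21571263, 21758508 and 20839411 in replicate 1 thus match the first 3 of replicate 2. The other pair of replicate 1 were split in replicate 2, each into a pair of islands.

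Most islands overlapped an island of the other replicate. An island of replicate 2 overlapped 18 of the 19 islands of replicate 1, and an island of replicate 1 overlapped 20 of the 24 of replicate 2. An overlap of 1 bp was enough, and no such share is given for islands elsewhere. These counts therefore have no background to be set against. The 5 without a partner were 20.4 to 50.9 kb long and were covered over 12.3% to 39.4% by the other replicate list, so none was empty there. For 16 islands the match was one to one. Over their 32 edges the replicates differed by a median of 2174.5 bp, with 11 edges within 1 kb, 22 within 5 kb and 4 apart by more than 10 kb, up to 15354 bp. These counts include the proximal edge of the last island, which lies at the end of the arm sequence, where the region of replicate 2 was trimmed, and so does not measure agreement. Among the closest of the others were the distal edge of that island (91 bp apart) and the proximal edge of the island ending at 20906284 in replicate 1 (96 bp apart). The distal edge of the island ending at 20906284 differed by 12223 bp, so the match was close at its proximal edge only.

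**Figure D3:**
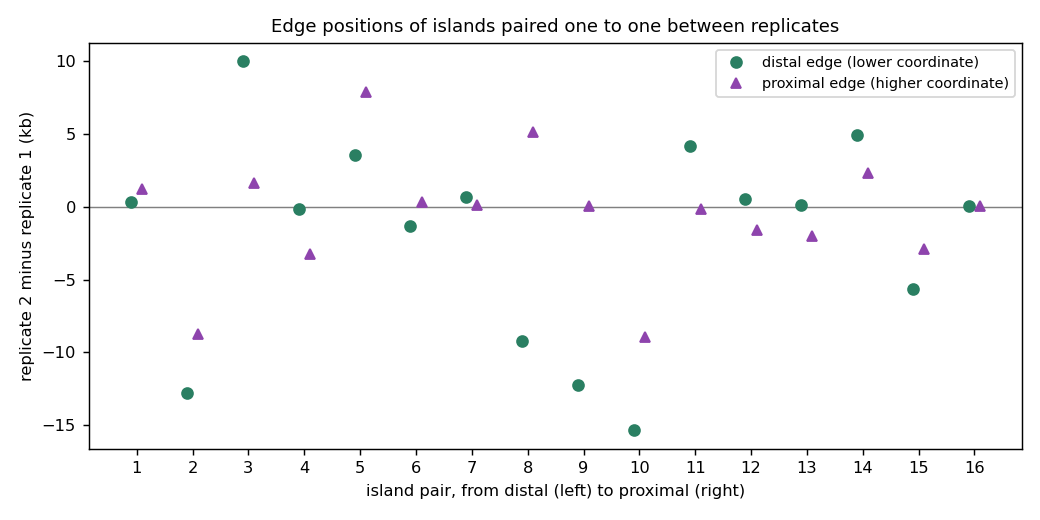
Position of each island edge in replicate 2 minus that in replicate 1 (kb) for the 16 islands matched one to one, ordered from distal to proximal; circles are distal edges and triangles proximal edges. Most points lie within 5 kb of zero and the farthest, a distal edge, lies 15.4 kb below it.

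A pair of islands stood apart from the rest in score. They were picked as the islands with the highest mean score, weighted by length, in replicate 1 (2.31 and 2.22) after the data were seen, so the replicate 1 scores are only a description. The distal block ran from 21571263 to 21687454 and the proximal block from 21758508 to 21844190. Together they held 13 regions of replicate 1, or 5.99% of its members, and 21.4% of the covered bases. In replicate 2, whose scores did not enter the choice, they held 21 regions (7.87%) and 19.1% of the covered bases, and those regions had scores of 1.17 to 2.99 with a median of 1.99, against 0.476 to 1.95 with a median of 0.759 for the other members. The ranges overlapped. Replicate 2 had 17 of its 20 highest-scoring members in the blocks, replicate 1 had 12 and the combined list 6. The blocks held 21, 13 and 7 regions of these lists, so replicate 1 and the combined list could not reach 20. Members with a score of at least 1.5 outside the blocks numbered 8 in replicate 2 and 10 in each of the other lists. Some of these formed a run just distal to the blocks, with scores like those of many block regions. It held 4 regions between 21522554 and 21559570 in replicate 1, with scores of 1.57 to 2.20, and 4 between 21524844 and 21559270 in replicate 2, with scores of 1.75 to 1.95. The regions starting at 21550550 in replicate 1 and at 21547790 in replicate 2 overlapped no region of the other replicate list. Block regions were also longer, with a median of 7471 bp in replicate 1 and 5113 bp in replicate 2, against 2420.5 and 2124 bp for the other members. Replicate 2 covered the distal block over 83.5% and the proximal block over 86.5%. Between the outer edges of the pair lay 272.9 kb. Without that stretch the coverage of the first Mb was 29.8% ± 1.38, beside 24.9% ± 0.123 for the second (SD, n = 2 for each). The removed stretch also holds the gap between the blocks, where neither replicate has a region, while the second Mb kept all its gaps. These values therefore do not settle whether the first Mb stays above the second without the blocks.

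The blocks lay on either side of a stretch without regions. No region of either replicate lay between 21687455 and 21758507, and the combined list left 21688067 to 21758519 free, the only stretch of at least 50 kb in the last 3 Mb that it did not enter. On the distal side of the gap the last region of the distal block ran from 21647735 to 21687454 in replicate 1 (score 2.21) and from 21648795 to 21687305 in replicate 2 (score 1.86). Within the last 3 Mb of X these are the longest regions of the 2 replicate lists, and their ends at the gap differed by 149 bp. On the proximal side the first regions were among the strongest members. In replicate 1 the first and second regions of the proximal block, 21758508 to 21765221 and 21765243 to 21772043, both had a score of 3.31. In replicate 2 the first 4 regions, between 21759056 and 21772548, had scores of 2.21, 2.62, 2.99 and 2.91. The regions nearer the centromere scored lower, between 1.17 and 2.29 in replicate 1 and between 1.17 and 2.17 in replicate 2, and the last of the block was the lowest in both. Past a further 42.3 kb without a region in either replicate, the first regions on the centromere side of the block had scores of 0.593 in replicate 1 and 0.550 in replicate 2. Whether reads can be placed in this stretch, or in the other stretches without regions, was not tested, so the absence of a region is not a measure of absent H3K9me2.

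**Figure D4:**
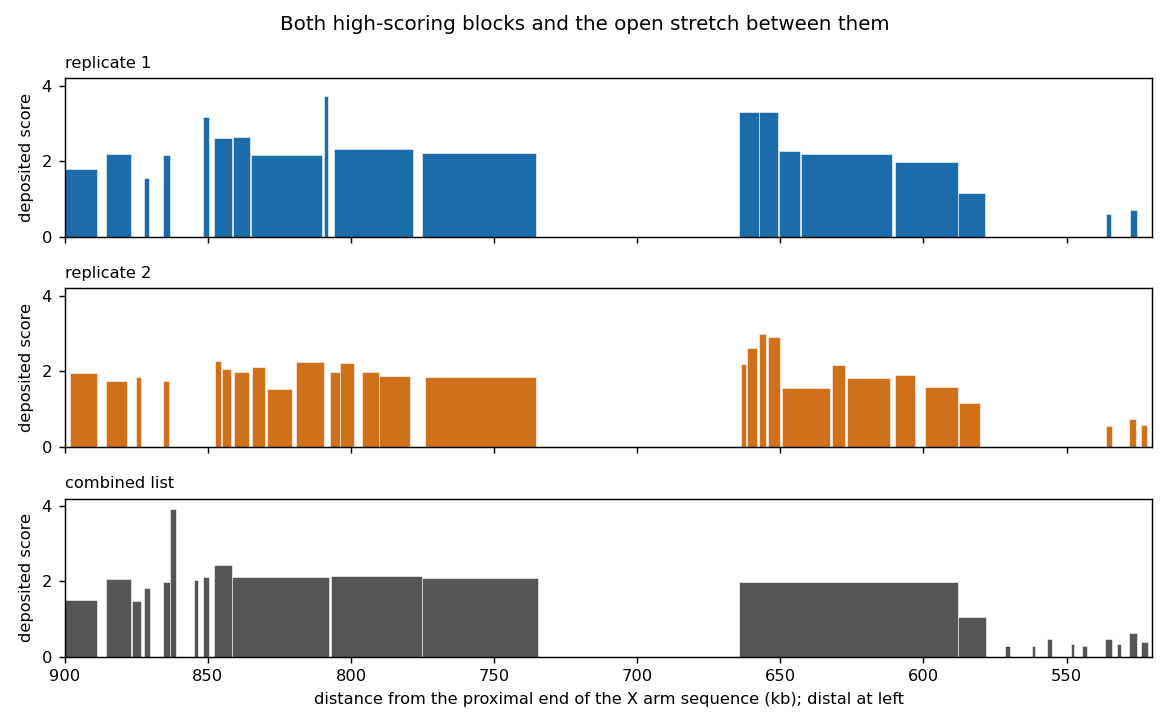
Regions between 900 and 520 kb from the proximal end of X in each list, as bars of their length and deposited score. The bars of both blocks end within 1 kb of each other across the lists on either side of the empty stretch, and the proximal block is highest near its distal edge in the replicate lists.

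Open stretches of at least 50 kb without a region in either replicate numbered 5 in the last 3 Mb of X, against 11 on 2L and 9 on 3L. The longest on X was 98.4 kb, from 20377204 to 20475555, and the next 74.8 kb, from 20549134 to 20623943. Both lay in or at the edge of the trough 1800 to 2100 kb from the end, and the combined list placed 5 regions in each, covering 6.87% and 8.79%. The third was the 71.1 kb between the blocks, of which the combined list covered 0.861%. The first and second differed from it in their surroundings: the regions on either side of them had scores between 0.721 and 1.20 in the replicate lists, against 1.86 to 3.31 beside the stretch between the blocks.

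The median score of the pericentric regions was slightly above that elsewhere on X. The score is the authors' own enrichment value on a scale that is not stated, so it is compared only within a list. The median was 0.828 in the last 3 Mb in replicate 1 and 0.783 in replicate 2, against 0.746 and 0.723 on the rest of X, a mean difference of 0.0707 ± 0.0154 (SD, n = 2). Without the regions of the blocks the difference was 0.0486 ± 0.0172 (SD, n = 2). The highest scores were close, at 3.73 and 2.99 in the last 3 Mb against 3.59 and 2.98 on the rest of X. Along the last 3 Mb the median by Mb stayed between 0.777 and 0.843 in replicate 1 and between 0.750 and 0.827 in replicate 2, and the first Mb was highest in both. Islands in the third Mb had mean scores, weighted by length, of 0.743 to 1.18 in replicate 1 and 0.678 to 1.15 in replicate 2. The highest of these was the island from 19601705 to 19639953 in replicate 1 and that from 19804050 to 19868114 in replicate 2. Among the regions outside the islands, a neighbouring pair stood out about 336 kb from the end. In replicate 1 they ran from 22084121 to 22087261 (score 2.74) and from 22087964 to 22091221 (score 2.10), and in replicate 2 from 22083183 to 22085985 (score 1.34) and from 22087867 to 22090819 (score 1.81).

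The longest regions of the combined list drew together the long regions of the replicates. The 4 longest all belonged to the blocks: 76.3 kb from 21758520 to 21834822 (score 2.00), 40.5 kb from 21647568 to 21688066 (2.10), 33.8 kb from 21581420 to 21615244 (2.11) and 31.7 kb from 21615832 to 21647548 (2.15). The first spans 5 regions of replicate 1 and 9 of replicate 2, which covered it over 98.2% and 87.3%. The next 6 were 21.3 to 25.2 kb long with scores of 0.752 to 1.06. They lay at 21377576 to 21402764, 19697688 to 19721344, 20858576 to 20882030, 19838664 to 19861984, 20669572 to 20692114 and 20837132 to 20858436, up to 2701 kb from the end. Replicate 1 covered them over 65.5% to 90.7% and replicate 2 over 61.6% to 98.0%.

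Agreement between the replicates was moderate base by base. Bases covered in both lists made up 76.9% of what replicate 1 covered and 76.8% of what replicate 2 covered. The Jaccard index, or bases in both lists over those in either, was 0.624. It was 0.688 in the first Mb, 0.570 in the second and 0.582 in the third, against 0.565 on the rest of X. The last 3 Mb of 2L and 3L had indices of 0.836 and 0.910, and the cause of the difference from X was not tested. A member counted as shared when it overlapped the other replicate's list by 1 bp or more, which held for 176 of 217 in replicate 1 (81.1%) and 197 of 267 in replicate 2 (73.8%). Over all sequences these shares were 81.7% and 79.7%, so the members of replicate 1 were close to the background of the whole list and those of replicate 2 below it. On the rest of X they were 76.6% and 65.3%.

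Members found in a single replicate list were short. Since an overlap of 1 bp was enough to be shared, longer members could meet the rule more easily, which may account for part of the contrast in length. The 41 of replicate 1 had a median length of 1785 bp, against 2933 bp for its shared members, and the 70 of replicate 2 had 1616.5 bp against 2743 bp. They made up 9.06% and 13.2% of the covered bases. Their median scores were 0.753 against 0.842 in replicate 1, and 0.674 against 0.840 in replicate 2. Some scored well above these medians. The highest was the first region of the distal block in replicate 1 (21571263 to 21573178, score 3.17), which replicate 2 did not cover. Others lay in the run just distal to the blocks: 21550550 to 21552316 in replicate 1 (score 1.57) and 21547790 to 21549617 in replicate 2 (score 1.84).

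The combined list added short regions. Of its 358 members, 130 overlapped both replicate lists, 90 a single list and 138 neither, or 38.5% against 33.2% over all sequences and 39.3% on the rest of X. The 138 had a median length of 1316 bp, a median score of 0.493 and held 13.9% of the bases that the combined list covered, whereas the 130 had medians of 5085 bp and 0.693 and held 71.5%. Here too longer regions could overlap a replicate list more easily. The 2 members with the highest score in the combined list also belonged to the 138. They ran from 21559776 to 21561752 (score 3.91), just distal to the distal block, and from 22099410 to 22101348 (score 3.15). The next 3 by score were those starting at 21575068 (2.43), at 21403028 (2.19) and at 21615832 (2.15). They were covered over 87.1% to 100% by replicate 1 and over 78.0% to 90.2% by replicate 2. The combined list is not a further replicate and is no independent support.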

How the data were processed

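The measurements were lists of H3K9me2-enriched regions from 2 ChIP libraries of wild-type larvae, each with an input library. Bowtie 0.12.7, a read aligner, is listed per the submitters' processing notes. Per the file headers, positions refer to release 5 of FlyBase. For the region calls, neither the program nor any threshold or filter is stated, nor how the combined list was made: not given in the sources used here. A deposited score comes with each region, the authors' own enrichment value, whose scale is not stated. Regions named as depleted were left out, and the regions of replicate 2 and of the combined list that ran past the end of X, by at most 367 bp, were trimmed. The depth is unknown.

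Covered bases, 100 kb windows counted from the proximal end, islands (regions joined across gaps of at most 10 kb, at least 20 kb long) and overlaps of at least 1 bp were computed in Python 3.11.15 with NumPy 2.4.6, and Spearman's rho with SciPy 1.17.1. The functions were checked on simulated lists with planted islands. Values are means and SD over the 2 replicate lists, and the combined list is kept apart. Named are, by rule, the 10 longest and 5 highest-scoring combined regions, the 5 islands of each replicate list with the most covered bases, and the 3 longest open stretches. Other named regions, the comparison by Mb, the blocks, the edge offsets, and the limits on region length and gap, were chosen after the values were seen. The members and lists were chosen with earlier results of these data known. Alternatives covered the lists, score, length, boundary, window, threshold and joining gap.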

Additional observations from a re-analysis of the deposited data

How the results depend on the processing

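The excess of coverage over the rest of X and the higher median score kept their sign under each alternative run. Of the 63 alternative values, 32 stayed within the spread between replicates (1 SD) or, for counts, within 1.5 times the reported count. For measures other than counts, a single replicate list always lies within 1 SD of the mean of 2. Those values are among the 32 by arithmetic and are no sign of stability. The same holds for keeping only regions wholly past the boundary, since no region crossed it. Each replicate list alone gave 217 to 267 regions, 29.9% to 29.9% coverage, an excess of 16.9 to 18.1 percentage points, 3 to 6 windows at least 50% covered, 2 to 4 switches at 50%, 19 to 24 islands, a score difference of 0.0598 to 0.0816 and a length ratio of 1.07 to 1.13. The combined list gave 48.9% coverage, an excess of 26.6 points, 14 such windows, 13 switches, a score difference of 0.0427 and a length ratio of 1.06. Keeping the upper 50% of each list by score left 63.5 regions on average, covering 13.9% of the stretch, with an excess of 9.73 points, 6.5 islands, 79.7% of bases shared, a score difference of 0.1202 and a length ratio of 0.984 ± 0.218 (SD, n = 2), a spread that takes in both longer and shorter pericentric regions. Regions of at least 2000 bp numbered 152 and gave 24.98% coverage, an excess of 15.4 points, 78.3% shared, a score difference of 0.0353 and a ratio of 1.02. With the boundary at 2 Mb coverage was 32.3% and the excess 19.3 points. Windows of 50 kb gave 8 covered windows and 14 switches, and a threshold of 25% gave 16 and 12. With the regions of the blocks dropped but their stretch kept in the 3 Mb, an alternative chosen after seeing the data, coverage was 23.8% (26.2% ± 0.546 with the stretch left out as well, SD, n = 2), the excess 11.5 points, the covered windows 0, the bases shared 72.7% and the score difference 0.0486. The combined list holds more regions, and the limits on score and length and the dropped blocks leave fewer; the cause was not tested beyond that. The share of bases in both replicates has no value for a single list. No paired analysis was possible because only the ChIP libraries have region lists, and the inputs that bear the same replicate numbers have none.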
